A study of Homo sapiens with 8 samples.

Results

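In clones of the established pancreatic ductal adenocarcinoma line CFPAC1, 31961 H3K27ac peaks were measured. Of these, 504 had a low mean score before interferon and a higher one in the control clones after it. They are the peaks with a mean score of at most 12 over the 4 untreated libraries and of at least 30 over the 2 hIFNb libraries of the control clones. A score is the authors' normalised peak count, rounded to a whole number. hIFNb is read here as human interferon beta. Both control clones (1 and 4) carried the lentiviral CRISPR plasmid lentiCRISPRv2, spelled lentiCRIPSv2 in the labels, with no guide named. Both IRF1-guide clones (11 and 13) carried it with wild-type Cas9 and a guide RNA against IRF1, and each line was isolated as a single clone by dilution. Each of the 4 clones gave 1 untreated library and 1 library after 2 hours of hIFNb, which makes 4 groups of 2. The labels do not say whether the IRF1-guide clones lack the IRF1 protein. Clones are the replicates, so differences between clones other than the guide cannot be told apart from it.

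Acetylation of lysine 27 on histone H3 marks active promoters and enhancers. Interferon beta binds its receptor on the cell surface and activates a transcription factor complex with IRF9 that binds the interferon-stimulated response element (ISRE) near interferon-stimulated genes. IRF1 is itself induced by interferons and binds closely related sequences.

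Only 15 of the 504 peaks held the transcription start site (TSS) of a protein-coding gene, and 13 of these genes had a RefSeq promoter sequence, from 250 bases before the TSS to 50 after it. An ISRE match, GAAANNGAAA on either strand, lay in 6 of the 13 (46.15%), against 3.65% of all 27305 RefSeq promoters of that length. The 6 genes were SHFL, HERC5, IFNL1, IFNL2, IFNL3 and DDO. The 250 bases before the TSS of 4 of them are shown because they belong to interferon-stimulated or interferon genes and their matches lie before the TSS. They are printed 5′ to 3′ on the strand of the gene, from RefSeq on GRCh38.p14, with the ISRE matches in capitals (overlapping matches run together). SHFL lies at chr19:10086067-10086316 (plus strand), HERC5 at chr4:88456869-88457118 (plus), IFNL1 at chr19:39296157-39296406 (plus) and IFNL2 at chr19:39268146-39268395 (plus).
SHFL: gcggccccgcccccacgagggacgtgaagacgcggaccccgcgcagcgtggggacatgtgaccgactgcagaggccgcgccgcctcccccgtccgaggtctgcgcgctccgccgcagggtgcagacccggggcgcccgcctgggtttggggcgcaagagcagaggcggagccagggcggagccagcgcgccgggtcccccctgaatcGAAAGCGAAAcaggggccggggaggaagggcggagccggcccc
HERC5: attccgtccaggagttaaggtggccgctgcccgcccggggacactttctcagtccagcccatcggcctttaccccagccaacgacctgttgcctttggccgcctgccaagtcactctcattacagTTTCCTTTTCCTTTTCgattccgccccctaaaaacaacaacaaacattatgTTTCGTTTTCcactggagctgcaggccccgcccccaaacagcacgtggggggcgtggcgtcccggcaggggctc
IFNL1: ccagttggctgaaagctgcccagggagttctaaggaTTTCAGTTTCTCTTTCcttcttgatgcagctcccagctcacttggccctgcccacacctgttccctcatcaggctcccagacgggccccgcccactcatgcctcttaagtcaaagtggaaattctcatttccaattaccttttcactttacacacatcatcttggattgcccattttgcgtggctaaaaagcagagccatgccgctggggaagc
IFNL2: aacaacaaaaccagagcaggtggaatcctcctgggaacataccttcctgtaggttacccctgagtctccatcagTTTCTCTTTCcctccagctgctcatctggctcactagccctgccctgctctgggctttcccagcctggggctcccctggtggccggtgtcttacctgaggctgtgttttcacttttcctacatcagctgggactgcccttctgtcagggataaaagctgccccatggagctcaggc

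The match of SHFL read on the plus strand and began 43 bases before the TSS. HERC5 had 3 matches on the other strand, beginning 125, 119 and 74 bases before the TSS, the first pair overlapping. IFNL1 had 2 overlapping matches, beginning 214 and 208 bases before the TSS, and IFNL2 had 1 at 176. The IFNL3 promoter was identical to that of IFNL2 at 299 of 300 positions and held the same match. In DDO the match began 2 bases after the TSS. The other motifs searched were the gamma-activated site TTCNNNGAA, in 0 of the 13 promoters against 7.88% of all, the AP-1 site TGANTCA, in 1 (7.69%) against 7.76%, the NF-kB site GGGNNTTTCC, in 0 against 1.92%, and the forkhead site TGTTTNC, in 3 (23.08%) against 18.14%. A match is a run of letters and does not show binding. With 13 promoters these shares rest on few genes, and the sequences of the distal peaks were not used here.

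The totals of the scores ran from 3277561 to 3460390 per library. Every whole number up to 100 occurred in both control untreated libraries, whereas 10 to 30 of them never occurred in each of the other 6, so the columns differ in grain. What this grain does to low scores was not tested. Of the ductal epithelial genes, KRT7, KRT8, KRT18, EPCAM and SOX9 had a peak over the TSS and KRT19 and CDH1 did not, and of 6 leukocyte genes 1 had one (LYZ). So did 2 of 6 fibroblast genes (COL1A1 and ACTA2), 1 of 4 endothelial genes (PECAM1) and 2 of 5 acinar and endocrine genes (CPA1 and CELA3A).

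In the median peak, the untreated score was 9 in both control clones and 5 and 6 in IRF1-guide clones 11 and 13. After hIFNb it was 45 and 43 in control clones 1 and 4, and 13 and 11 in IRF1-guide clones 11 and 13. Over all peaks the medians after hIFNb were 47 and 50 in control clones 1 and 4, and 46 and 47 in IRF1-guide clones 11 and 13. Untreated scores of single members reached 30 in control clone 1 and 23 in control clone 4. The control clones' scores after hIFNb ran from 17 to 261 in clone 1 and from 17 to 172 in clone 4, and those of the IRF1-guide clones from 0 to 162 in clone 11 and from 0 to 152 in clone 13. The rule used both control groups and the untreated IRF1-guide libraries, so those levels are a description, and the IRF1-guide libraries with hIFNb are the ones it left free. Each of the 6 libraries it used stood on its own side of the threshold in 188 of the 504 peaks. Peaks are linked here to the gene of the protein-coding TSS nearest to their centre within 50 kb, which states a distance and no function. The nearest members inside the untreated limit, at a mean of 12, were linked to CBR1, GARIN4 and DRC1, and the nearest peaks outside it had 12.25. At the hIFNb limit, peaks linked to PER3, HSD11B1 and ADAMTS15 had exactly 30, and those linked to MOV10 and CCDC175 fell outside with 29.5.

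**Figure D1:**
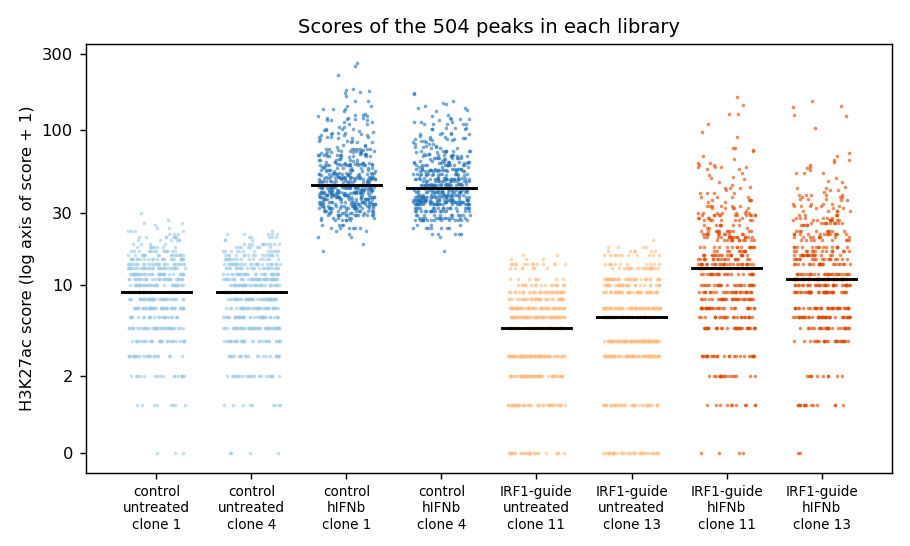
H3K27ac scores of the 504 peaks in each of the 8 libraries, on a log axis of score + 1. Each point is 1 peak and each black line the median, which is 45 and 43 in the control clones with hIFNb and 13 and 11 in the IRF1-guide clones with hIFNb.

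Most peaks chosen in either control clone had a higher score with hIFNb in the other, and fewer of them met both limits there. With the limits applied to clone 1 alone, 434 peaks were chosen, and 428 of them (98.62%) had a higher score with hIFNb than without it in clone 4, where 233 (53.69%) also met both limits. With the limits applied to clone 4 alone, 452 of 459 peaks (98.47%) were higher with hIFNb in clone 1, where 233 (50.76%) met both limits. Of the peaks chosen in clone 1, 86.64% were higher with hIFNb in IRF1-guide clone 11 and 83.18% in clone 13. For those chosen in clone 4 the shares were 85.19% and 80.39%. Over all peaks they were 49.21% in clone 11 and 47.18% in clone 13. Among peaks outside the 504 with an untreated mean of at most 12 they were 58.93% and 54.31%. No such shares were counted in the control clones, so the 98.62% and 98.47% have no background beside them and nothing is read from them. The peaks of both choices, made after the data were seen, had a median hIFNb score of 42 in the clone that chose them. It was 42 and 44 in the other control clone. Across the 504 peaks, the hIFNb scores of clones 1 and 4 had a Spearman correlation of 0.621, and those of clones 11 and 13 one of 0.695. Both are descriptions over peaks that share libraries and range widely in width.

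Some of the peaks also gained acetylation in the IRF1-guide clones. In limma's group-means fit, 69 of the 504 (13.69%) passed as higher with hIFNb in the IRF1-guide clones and 0 as lower (adjusted p under 0.05), with a median log2 change of 1.14, against 1.20% of all 31961 peaks called higher. The rule held the untreated side of this comparison low. A rule on the control clones alone, which used no IRF1-guide library, chose 403 peaks, of which 57 (14.14%) were called higher in the IRF1-guide clones and 0 lower, with a median of 1.09. When the model held the clone as a block, so that treated and untreated libraries were paired by clone, the counts were 224 of 504 and 174 of 403, against 7.44% of all peaks. These calls leaned on both IRF1-guide libraries with hIFNb. Without clone 11 in that group 8 of the 504 were called and without clone 13 16, and without untreated clone 11 there were 34, without control clone 1 or 4 with hIFNb 40 and 41, and 6 in a fit of the 4 IRF1-guide libraries alone. In the rule on control clones, the same fits called 7, 13, 23, 34 and 35, and 6, and without untreated clone 13 35.

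Counted without a test, both IRF1-guide hIFNb scores lay above both untreated ones in 326 peaks (64.68%). This held for 22.5% of all peaks and 30.7% of the other peaks with an untreated mean of at most 12. The IRF1-guide mean with hIFNb was above the untreated mean in 457 of 504 (90.67%), against 48.88% of all peaks and 60.77% of those other low peaks. It reached 30, the level set for the control clones, in 63 peaks (12.5%), lay between 12 and 30 in 183 (36.31%), and stayed at or under 12 in 258 (51.19%). These shares were 0.55%, 24.36% and 75.09% among the other low peaks, and 65.32%, 22.29% and 12.39% among all peaks. Taking the same limits with the IRF1-guide clones in place of the control clones gave 82 peaks, and these 63 made up 76.83% of them. With the limits applied to each genotype's own libraries alone, the control clones gave 403 peaks and the IRF1-guide clones 107, and 46 were shared (11.41% of the former and 42.99% of the latter).

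Relative to the control mean with hIFNb, the IRF1-guide mean had a median of 25.32% over the 504 peaks, with quartiles at 16.67% and 40.0% and extremes of 1.3% and 173.91%. Both IRF1-guide scores with hIFNb lay below both control scores in 470 peaks (93.25%), against 24.2% of all peaks, and limma called 176 lower and 0 higher, against 2.19% of all peaks called lower. The rule chose high control scores, so nothing is read from this median share or from these 2 counts. In the control clones' own response, which the rule fixed, 320 were called higher (4.07% of all peaks), or 484 with the clone as a block (13.4% of all peaks).

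**Figure D2:**
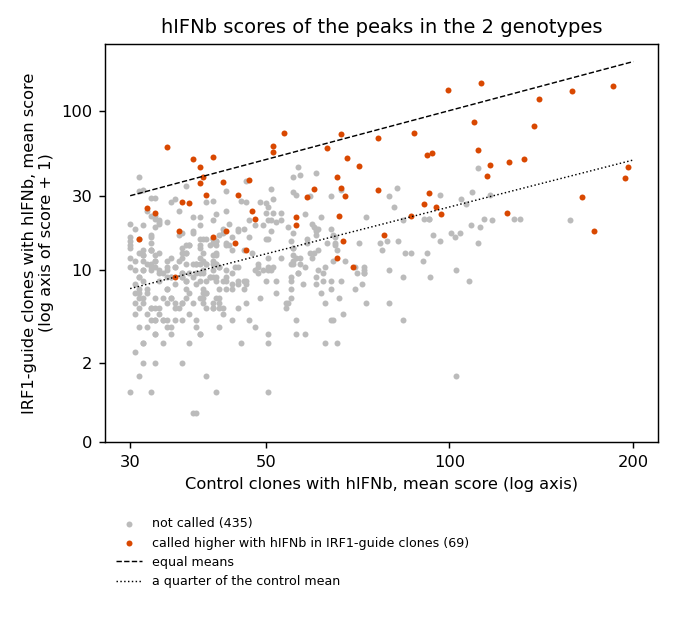
Mean hIFNb score of each of the 504 peaks in control clones (x axis) and in IRF1-guide clones (y axis, score + 1), both log axes. Orange marks the 69 peaks called higher with hIFNb in IRF1-guide clones. Of the 504 points, 491 lie below the dashed line of equal means, which the rule's choice of high control scores favours.

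Peaks were also chosen by the same untreated limit and a mean of at least 30 over all 4 hIFNb libraries, a rule that gives both genotypes equal weight and was added after the data were seen. It gave 247 peaks, 242 of them among the 504. Their control mean with hIFNb was at least 30 in those 242, and their IRF1-guide mean in 68. A peak that passed through its control scores alone had to differ between the genotypes, so the counts that follow are descriptions and support nothing about the size of the difference. In limma's group-means fit, 90 of the 247 (36.44%) were lower in IRF1-guide than in control clones with hIFNb and 0 were higher, with a median log2 difference of -1.72, beside 2.19% of all peaks called lower. Without either control library with hIFNb the count was 0, and without IRF1-guide clone 11 or 13 with hIFNb it was 21 and 23. The IRF1-guide mean was at least the control mean in 18 of the 247 peaks (7.29%), beside 49.51% of all peaks.

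The difference between the hIFNb responses was read in the same 247 peaks, with the same limit. The group-means fit called 0 (0% of all peaks called lower), with 1 higher and 75 lower at an unadjusted p under 0.05, and 0 in every other group-means fit. With the clone as a block, limma called 27 smaller in the IRF1-guide clones and 0 larger, beside 0.657% of all peaks called smaller. The IRF1-guide mean with hIFNb was at least 30 in 3 of the 27, so the other 24 had passed through their control scores. The median difference in log2 response was -0.93. Among the 504 the corresponding counts were 0 and 45, which the rule's choice of high control scores favours.

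None of the 27 peaks held a protein-coding TSS (0 of 27), against 13 of the 247 (5.26%) and 24.7% of all peaks. With 27 peaks, 0 lies near the share of the 247, and nothing is read from it. The 4 examples linked to a gene with the largest differences were chosen after their values were seen. At the peak linked to ARRDC3, an arrestin-domain gene (chr5:91395767-91398947), scores went from 3 and 1 to 89 and 70 in control clones 1 and 4, and from 2 and 6 to 7 and 5 in IRF1-guide clones 11 and 13. Its difference in response was -4.22 ± 0.75 (log2 and SE, limma with the clone as a block). At the peak linked to GRAMD1C, a gene of a cholesterol-transport family (chr3:113910731-113913561), the control scores went from 7 and 10 to 76 and 53 and the IRF1-guide scores from 7 and 11 to 5 and 4. The peak linked to BMPR1A, a receptor of bone morphogenetic proteins (chr10:86797280-86801446), went from 5 and 2 to 53 and 63 in control clones and from 8 and 9 to 12 and 9 in IRF1-guide clones. The peak linked to HOMER1, a scaffold protein of synapses (chr5:79558975-79564773), went from 11 and 9 to 102 and 103 and from 10 and 7 to 5 and 15. At these 4 peaks the hIFNb scores of the genotypes did not overlap, which the choice of high control scores favours. The untreated scores overlapped at 3 of them and were higher in the IRF1-guide clones at BMPR1A.

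**Figure D3:**
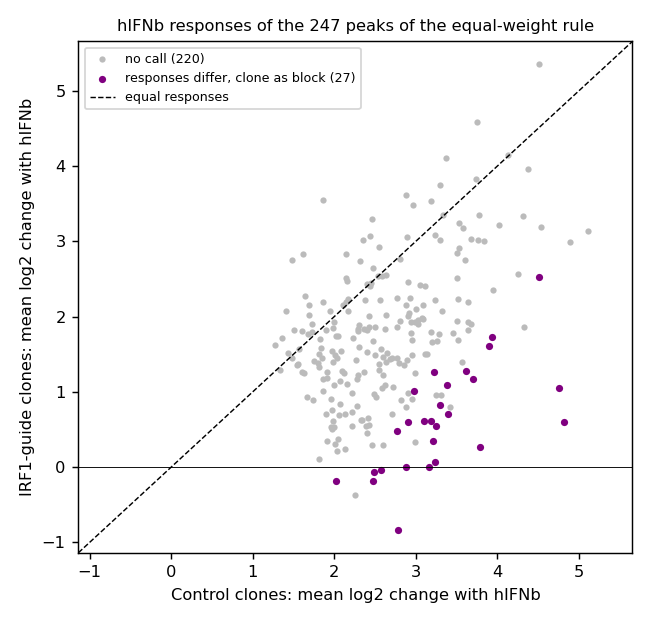
Mean log2 change of score + 1 with hIFNb in control clones (x axis) and in IRF1-guide clones (y axis) for the 247 peaks chosen by the mean over all 4 hIFNb libraries. Purple marks the 27 peaks whose responses differed with the clone as a block, all of them below the dashed line of equal responses.

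The highest mean score with hIFNb in the control clones belonged to a peak linked to NOS2, which encodes inducible nitric oxide synthase (chr17:27805730-27813312, centre 8.99 kb from the TSS). It went from 13 and 17 to 251 and 141 in control clones 1 and 4, and from 5 and 3 to 60 and 31 in IRF1-guide clones 11 and 13. Its log2 change in the IRF1-guide clones was 3.17 ± 0.42 (SE; limma, adjusted p = 0.00631). Both IRF1-guide scores with hIFNb lay below both control scores, as in 93.25% of the 504 peaks and 24.2% of all peaks. The IRF1-guide clones reached 23.2% of the control mean. This peak was named for its high control scores, which favours both, so nothing is read from them.

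A peak 42.3 kb from the TSS of IRF8, an interferon regulatory factor of myeloid and B cells (chr16:85856127-85864839), went from 8 and 7 to 220 and 168 in control clones and from 7 and 4 to 54 and 23 in IRF1-guide clones. It rose by 2.52 ± 0.43 in the latter (limma, adjusted p = 0.0198). With the clone as a block its difference in response was -1.99 ± 0.46, and the group-means fit did not call it. This peak was named for its high control scores, which favours such a difference, so nothing is read from it. CYP19A1 encodes aromatase, and a peak in its body (chr15:51281133-51286683) went from 9 and 10 to 181 and 134 in control clones and from 5 and 7 to 27 and 15 in IRF1-guide clones, a log2 change of 1.61 ± 0.38 that did not pass (adjusted p = 0.0894). A peak linked to LOC105371932 (chr17:35285034-35292844) lay 11.4 kb from the body of SLFN5, an interferon-inducible Schlafen gene. It went from 20 and 16 to 173 and 172 in control clones and from 6 and 4 to 21 and 15 in IRF1-guide clones. Its log2 change in the IRF1-guide clones was 1.665 ± 0.341 (limma, adjusted p = 0.0477). It did not pass with 4 in place of 1 added to the scores (limma, adjusted p = 0.0702), or in the 4 IRF1-guide libraries alone (0.305). With median-of-ratios and quantile rescaling it did not pass either (limma, adjusted p = 0.0517 and 0.0797).

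Other peaks among the 12 highest had larger scores in the IRF1-guide clones relative to the control clones. In the body of LINGO1, a neuronal receptor gene (chr15:77609005-77617295), scores went from 7 and 6 to 261 and 110 in control clones and from 2 and 3 to 162 and 123 in IRF1-guide clones (5.36 ± 0.42 on the log2 scale; limma, adjusted p = 0.000572). At the peak linked to SNX20, a sorting nexin gene of leukocytes (chr16:50661870-50669283), they went from 7 and 7 to 171 and 147, and from 15 and 10 to 126 and 140 (3.33 ± 0.29, adjusted p = 0.000938). A peak 471 kb from the nearest protein-coding TSS (chr4:63933824-63942834) went from 10 and 9 to 135 and 145, and from 2 and 7 to 110 and 125. A peak in the body of OTOF, the otoferlin gene (chr2:26488203-26497536), reached 152 and 123 in control clones and 98 and 63 in IRF1-guide clones. The IRF1-guide share of the control mean was 76.8% at LINGO1, 83.6% at SNX20, 83.9% at the chromosome 4 peak and 58.5% at OTOF. Among the 12 highest peaks this share ran from 10.4% at the SLFN5 neighbour to 83.9%. Naming peaks by their high control scores favours low shares.

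The IRF1-guide mean was at or above the control mean in 13 of the 504 peaks (2.58%), against 49.51% of all peaks. The rule's choice of high control scores favours this gap, and nothing is read from it. The highest share, 173.9%, was at C1S, which encodes a serine protease of the classical complement pathway (chr12:7057994-7062875). C1S went from 7 and 5 to 31 and 38 in control clones and from 13 and 3 to 66 and 54 in IRF1-guide clones, where it rose by 3.02 ± 0.53 (limma, adjusted p = 0.0221). An intergenic peak on chromosome 11 (chr11:78642997-78650290) went from 5 and 11 to 116 and 109, and from 9 and 10 to 144 and 152 (3.83 ± 0.35, adjusted p = 0.000938). At another on chromosome 4, 1471 kb from the nearest protein-coding TSS (chr4:130561628-130568032), the hIFNb scores were 136 and 63 in control clones and 126 and 142 in IRF1-guide clones. A peak in the body of SYCE3, a synaptonemal complex gene, reached 34 and 42 in control and 57 and 44 in IRF1-guide clones. The remaining peaks of the 10 highest shares ran from 108.7% at CHN1 to 137.4% on chromosome 1.

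At the other end, the 10 lowest shares ran from 1.3% to 4.8%. In 5 peaks all 4 IRF1-guide libraries had a score of at most 2 with and without hIFNb, which held for 0.992% of the 504 peaks, 1.89% of the other peaks with an untreated mean of at most 12 and 0.222% of all peaks. On chromosome 5 (chr5:153349090-153355588) the control scores went from 26 and 2 to 141 and 64, and the IRF1-guide scores from 1 and 0 to 2 and 1. In the body of PTPRT, a receptor-type phosphatase gene (chr20:42553326-42555404), the control scores were 18 and 7 without and 42 and 34 with hIFNb, and the IRF1-guide scores were 0 and 0 without and 0 and 1 with it. On chromosome 1 (chr1:121457425-121458951) they were 6 and 8, then 52 and 49, in control clones and 0 and 0, then 1 and 1, in IRF1-guide clones. Such peaks were low in the IRF1-guide clones in both conditions, and whether these regions are present in those clones was not tested.

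The type III interferon genes formed the only locus with 3 of the peaks within 50 kb of each other. IFNL1, IFNL2 and IFNL3, which encode the lambda interferons that act on epithelia, each had a peak over its TSS within 54.6 kb of chromosome 19. At IFNL3 (chr19:39243790-39247157) the scores went from 2 and 5 to 177 and 88 in control clones 1 and 4, and from 7 and 4 to 62 and 39 in IRF1-guide clones 11 and 13. At IFNL2 (chr19:39266568-39270656) they went from 1 and 5 to 163 and 87, and from 5 and 4 to 59 and 38. At IFNL1 (chr19:39294250-39298346) they went from 1 and 4 to 84 and 50, and from 0 and 0 to 21 and 10. All hIFNb scores exceeded all untreated ones at each gene. Both IRF1-guide scores with hIFNb lay below both control scores, as in 93.25% of the 504 peaks, which the rule's choice of high control scores favours. The rises in IRF1-guide clones were 2.99 ± 0.49 at IFNL3 (limma, adjusted p = 0.0158) and 3.14 ± 0.54 at IFNL2 (adjusted p = 0.0194). IFNL2 and IFNL3 are near-identical copies, so reads may have been split between them in a way the scores do not show.

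Among the listed interferon-stimulated genes, HERC5 and SHFL had such a peak over the TSS. HERC5, the ligase that attaches the modifier ISG15 to proteins (chr4:88454267-88460576), went from 16 and 14 to 97 and 78 in control clones and from 13 and 3 to 77 and 69 in IRF1-guide clones (3.30 ± 0.49, limma, adjusted p = 0.0101). SHFL, an antiviral inhibitor of translational frameshifting (chr19:10084107-10087400), went from 16 and 11 to 60 and 43, and from 6 and 3 to 57 and 65 (3.55 ± 0.39, adjusted p = 0.00235). Their IRF1-guide means were 83.4% and 118.4% of the control means, while the lambda interferon genes had 38.1% at IFNL3, 38.8% at IFNL2 and 23.1% at IFNL1, a difference between few genes that was not tested. All 5 promoters held an ISRE match.

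The other 9 promoter peaks belonged to genes of varied roles. LAMP3, a lysosomal membrane protein of dendritic cells, went from 4 and 6 to 62 and 71 in control clones and from 7 and 9 to 33 and 34 in IRF1-guide clones (1.95 ± 0.36, limma, adjusted p = 0.0273). VRK2, a serine-threonine kinase, went from 9 and 5 to 37 and 27, and from 2 and 4 to 21 and 29 (2.73 ± 0.47, adjusted p = 0.0186). PRR20G went from 12 and 9 to 120 and 103, and from 6 and 6 to 74 and 42 (3.02 ± 0.35, adjusted p = 0.0033). CYP2J2, an arachidonic acid epoxygenase, and DDO, D-aspartate oxidase, were also called in IRF1-guide clones, with rises of 2.08 ± 0.42 (adjusted p = 0.0476) and 1.82 ± 0.36 (adjusted p = 0.0398). GNB4, a G protein beta subunit, NAT8, an acetyltransferase, CHRNA1, the muscle acetylcholine receptor subunit, and HSD11B1, the cortisone reductase, had changes of 2.15, 1.53, 2.23 and 0.76 that did not pass (adjusted p of 0.0681, 0.0995, 0.0546 and 0.49). In all, 11 of the 15 promoter peaks were called in the IRF1-guide clones, against 1.20% of all peaks and 1.52% of the 7887 peaks holding a protein-coding TSS. Without IRF1-guide clone 11 with hIFNb 1 of the 15 was called and without clone 13 3, and without either untreated IRF1-guide library 5.

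**Figure D4:**
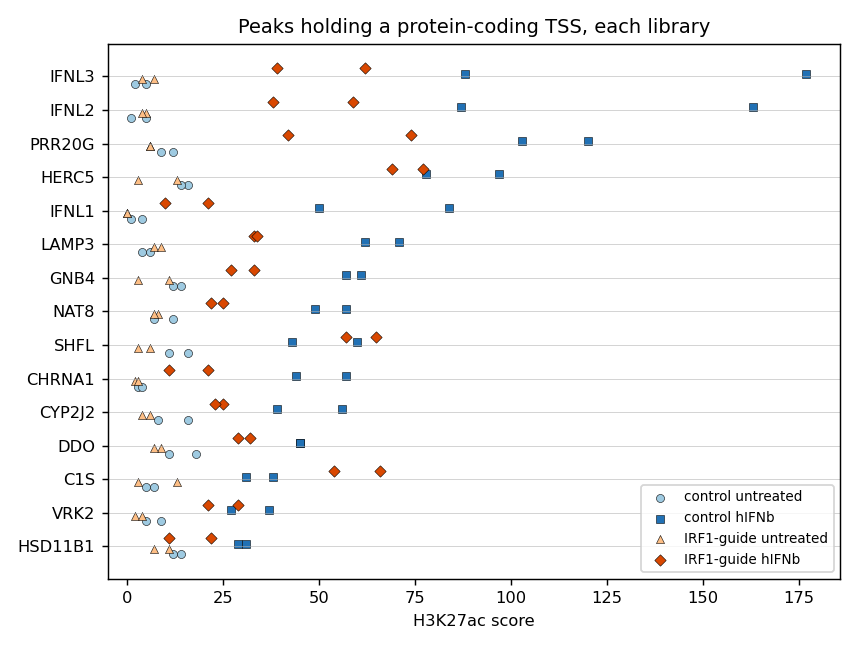
H3K27ac score in each library (x axis) at the 15 peaks that hold a protein-coding TSS, ordered by their control hIFNb mean. Circles and squares are control clones without and with hIFNb, triangles and diamonds IRF1-guide clones without and with it. The diamonds lie left of the squares at the IFNL genes, HERC5, LAMP3 and PRR20G, and right of them at C1S. The rule's choice of high control scores favours diamonds left of squares, as in 93.25% of the 504 peaks.

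Promoters were rare among the 504 peaks. A protein-coding TSS lay in 2.98% of them, against 24.7% of all peaks and 2.36% of the 3436 other peaks with an untreated mean of at most 12. Their median distance to such a TSS was 45.2 kb, against 28.2 kb over all peaks and 39.5 kb over the other low peaks, and 163 (32.3%) lay more than 100 kb away, against 23.0% of all. Their centre lay in a protein-coding gene in 250 cases (49.6%), against 57.3% of all peaks. They had a median width of 2666 bp, wider than the 677 bp of the other low peaks and narrower than the 3550 bp of all peaks. The control hIFNb score correlated with width across the 504 peaks (Spearman 0.73), so that wide peaks lead the ranking by score. Per kb of width, the control hIFNb score had a median of 17.3, against 14.4 in all peaks. The rule set a minimum on these scores, undivided by width, which favours wide peaks and high control scores. Nothing is therefore read from this density or from the width beside the other low peaks.

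The 69 peaks called in the IRF1-guide clones sat nearer to TSSs than the other 435. Their median distance was 23.5 kb against 50.8 kb, and 11 of the 69 (15.9%) held a protein-coding TSS against 4 of the 435 (0.92%). They were also wider, with a median of 3872 bp against 2550 bp. Without regard to calls, the IRF1-guide share of the control mean had a Spearman correlation of -0.23 with the distance to the TSS over the 504 peaks, and of 0.06 with the width.

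**Figure D5:**
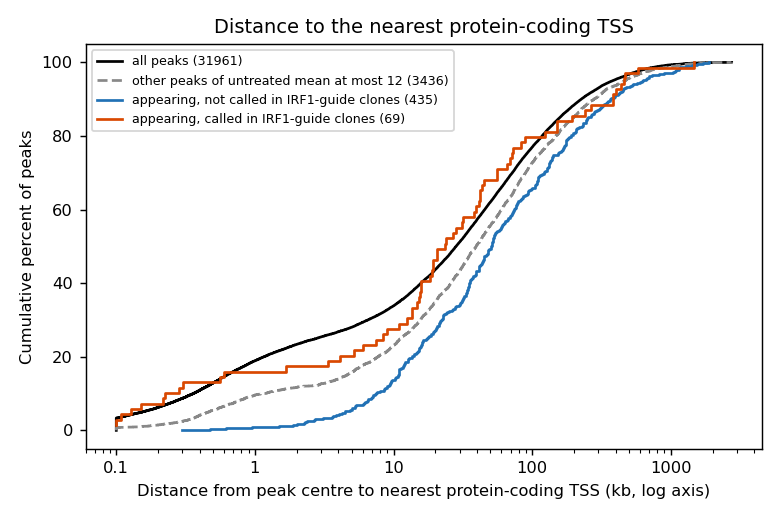
Cumulative percent of peaks (y axis) by distance from the peak centre to the nearest protein-coding TSS in kb (log x axis, distances under 0.1 kb drawn at 0.1). The 69 peaks called in IRF1-guide clones (orange) lie above the 435 not called (blue), with medians of 23.5 and 50.8 kb.

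The peaks were scattered over the genome. Of the 504, 485 had no other member within 50 kb, and 9 loci held the remaining 19. Chromosome 4 had 50 members (2.62% of its peaks), chromosomes 2 and 5 had 48 each (1.93% and 2.56%) and chromosome 1 had 46 (1.39%). After IFNL, the loci with the highest mean scores lay on chromosome 14 near PLEKHH1 and PIGH, with control hIFNb scores of 74 and 35, and 119 and 74, and on chromosome 5 near SIL1, with 115 and 69, and 44 and 27. In the IRF1-guide clones the scores there were 16 and 22, 40 and 21, 15 and 11, and 7 and 14. The 795 other peaks within 50 kb of a member had a median untreated mean of 42.5. Of these neighbours, 81 (10.19%) were called higher in control clones, against 4.07% of all peaks, and 25 (3.14%) in IRF1-guide clones, against 1.20%.

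Of the 451 peaks linked to a gene of the lists used here, 13 (2.88%) were members, against 1.58% of all peaks. Of 97 peaks linked to 65 listed interferon-stimulated genes, 4 (4.12%) were members (HERC5, SHFL, SP140L and CMTR1). Of the 97, 16 (16.5%) had an untreated mean of at most 12, against 12.3% of all peaks, and the median was 53.5. A peak in the body of SP140L, a nuclear body protein gene, went from 8 and 14 to 39 and 36 in control clones. In IRF1-guide clones it went from 7 and 6 to 27 and 27 (1.90 ± 0.38, limma, adjusted p = 0.0413). A peak in the body of CMTR1, the cap methyltransferase gene, went from 4 and 4 to 38 and 25 in control clones. In IRF1-guide clones it went from 3 and 3 to 2 and 11, a change of 0.59 ± 0.65 that did not pass (limma, adjusted p = 0.743). The change was negative, at -0.42, without IRF1-guide clone 13 with hIFNb.

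Among the other listed genes, 3 of 21 peaks linked to interferon and receptor genes were members (the IFNL genes), 2 of 36 linked to IRF and STAT genes, and 1 each of 48 for antigen processing, 24 for chemokines, 8 for complement and 46 for epithelial genes. None of the next 4 peaks held the TSS of its linked gene. A peak in the body of STAT5A, a signal transducer of cytokine receptors, had control scores of 3 and 2, then 38 and 24. Its IRF1-guide scores were 2 and 4, then 9 and 4. The peak linked to CXCL11, a T cell chemokine, lay in the body of ART3, 14.2 kb from that of CXCL11. It had 6 and 12, then 29 and 49, and 7 and 7, then 22 and 7. The peak linked to ERAP2, which trims peptides for MHC class I, lay in the bodies of ERAP1 and ERAP2. It had 6 and 5, then 29 and 34, and 9 and 10, then 15 and 12. The peak linked to MUC13, an epithelial mucin, lay in the body of HEG1, 40.2 kb from that of MUC13. It had 12 and 8, then 32 and 38, and 5 and 4, then 15 and 9. None of these 4 passed in the IRF1-guide clones, where the adjusted p ran from 0.281 at MUC13 to 0.66 at ERAP2. The GBP and APOL, TRIM and Schlafen, checkpoint and cell death, AP-1, NF-kB, cholesterol and fatty acid, and glycolysis lists had 0 members by this link. By position, and chosen after their values were seen, members lay in the bodies of ATF3, of the AP-1 list, and IDO2, of the checkpoint list, beside the one near SLFN5. The ATF3 peak went from 6 and 12 to 31 and 32 in control clones and from 6 and 16 to 22 and 17 in IRF1-guide clones, and the IDO2 peak from 11 and 5 to 60 and 57 and from 3 and 4 to 31 and 28.

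The untreated scores of the genotypes are described here without support from a test, since the rule used all 4 untreated libraries and the hIFNb libraries of the control clones only. The untreated mean over the 504 peaks was lower in the IRF1-guide than in the control clones in 392 peaks (77.78%), against 51.92% of all peaks, with a mean over peaks of 5.84 against 9.62. The median log2 difference was -0.69, against -0.03 over all peaks and -0.05 over the other low peaks. No single peak passed in limma's group-means fit (0 called lower, as among all peaks, 0%), with 148 lower and 12 higher at an unadjusted p under 0.05, and 3 lower in the fit without a mean-variance trend. The difference moved with the libraries that set the limits. In the 247 peaks chosen by the mean over all 4 hIFNb libraries the untreated mean was lower in IRF1-guide clones in 187 (75.71%). Their median log2 difference was -0.65. In the 403 peaks of the rule on control clones it was lower in 250 (62.03%), with a median of -0.33. In the 82 peaks whose hIFNb limit was set by the IRF1-guide clones the median was 0.02, with 44 peaks above 0 and 37 below.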

How the data were processed

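Per the labels, H3K27ac chromatin immunoprecipitation with the Abcam antibody ab4729 was sequenced in 8 libraries. The submitters' processing notes name Bowtie2 and the build GRCh38 (hg38). Each deposited score is a peak count that the authors normalised and rounded to a whole number. Peak calling, merging and scaling are not given in the sources, so the depth behind a score is unknown and no counting interval is given.

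The members and the gene lists were chosen with earlier results of these data known. Named peaks are the 12 highest in control clones with hIFNb, the 10 highest and lowest IRF1-guide shares, members linked to listed genes, those at the limits and the 3 largest loci. All 31961 peaks were fitted on log2(score + 1) with limma 3.58.1 (R 4.3.3) as 4 group means over 8 libraries. The empirical Bayes step used a mean-variance trend, p-values were adjusted by Benjamini-Hochberg, and calls needed an adjusted p under 0.05. A count test was not used, since scores are not counts. Fold changes on this scale understate the change of low peaks. The fit with the clone as a block used pairs from the same clone. The deviations of a clone's 2 libraries correlated at 0.437 in control and 0.392 in IRF1-guide clones. In the group-means fit the p-values measure the spread between the 2 clones of a group, pooled over the 4 groups and moderated over all peaks. With the clone as a block they measure how far the responses of clones of 1 genotype differ, pooled and moderated likewise. TSSs came from RefSeq and from the distances in the authors' table. Alternatives were pseudocounts of 0.5 and 4, a minimum mean score of 10, median-of-ratios and quantile rescaling, no trend, fewer libraries and other limits. A marker gene of the ductal list is not reported here.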

Additional observations from a re-analysis of the deposited data

Results flagged for a closer look

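The 247 peaks here are those chosen by the mean over all 4 hIFNb libraries. With the clone as a block, the hIFNb response was smaller in IRF1-guide than in control clones in 27 of them, and larger in 0. A test of the difference itself (the interaction in limma) singled these peaks out, at adjusted p-values under 0.05. The group-means fit called 0 of them. In 24 of the 27 the IRF1-guide mean with hIFNb was under 30, so these had passed the limit through the control clones, where they were high, and their direction is not independent of how they were chosen. Groups of 2 libraries are too small to look for single libraries far from the rest.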

How the results depend on the processing

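The number of peaks that met the limits depended on the limits. It was 256 and 778 at untreated limits of 8 and 16, and 869 and 236 at hIFNb limits of 20 and 45. It was 188 when each library had to pass and 107 with IRF1-guide clones alone. The IRF1-guide hIFNb mean gave 82 peaks and the mean over all 4 hIFNb libraries 247. Leaving out each library gave 446 to 589. The count called in the IRF1-guide response was 58 to 69 under other pseudocounts, filters, scalings and no trend, 224 with the replicate block for clone, 6 in the 4 libraries alone and 8 to 61 without 1 library. For the rule on control clones these were 48 to 60, 174, 6 and 7 to 53. The difference without hIFNb had 3 calls without a trend, against 0. The control response had 484 with the block and 56 to 344 without 1 library. The difference with hIFNb had 273 of the 504 at a pseudocount of 4 and 0 to 209 without 1 library, and 0 to 109 of the 247. The difference between responses had 45 of the 504 and 27 of the 247 with the block, and 0 otherwise. No fit gave a call in the opposite direction in any of these sets (0 in each). A link within 20 kb was found for 150 members in place of 262, and a TSS by the authors' annotation in 3.49% of the other low peaks, against 30.98% of all. Of 44 named peaks 27 were called in the IRF1-guide response, 6 of them in the full fit and without any 1 library. Changes of sign occurred without 1 library at CMTR1, whose log2 change ran from -0.42 (without IRF1-guide clone 13 with hIFNb) to 1.58, and near SIL1, from -0.45 (without untreated IRF1-guide clone 11) to 1.87. The cause of these shifts was not tested, beyond the fewer libraries in the smaller fits. The wider and narrower motif windows were not run, since they need a genome sequence.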
